A study of Mus musculus with 248 samples.

Results

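The genes described here are 9 transcription factors that direct the formation of granulocytes, monocytes and their neighbours: Cebpa, Cebpb, Cebpd and Cebpe of the C/EBP family, Spi1 (the gene of PU.1), Gfi1, Klf4, Irf8 and Irf4. They were chosen by name, as the rows whose Ensembl gene maps to one of these symbols, with earlier results of these data known. All 9 were in the training table of 18508 genes and 8 were in the validation table of 13607 genes. Cebpe was not analysed here in the validation cohort. The study followed C57BL/6 mice by repeated blood draws, labelled PBMC, from induction of the leukemia fusion Cbfb-MYH11 (CM) onward, and measured RNA by bulk sequencing.

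CM mice carried the conditional Cbfb+/56M allele together with Mx1-Cre. Mx1-Cre drives recombination from an interferon-responsive promoter, which acts beyond the blood-forming cells. Poly(I:C), 7 injections of 14 mg/kg every other day, induced the allele at 4 to 8 weeks of age. Control (Ctrl) mice were wild type or carried only one of those alleles, and were given poly(I:C) too, so both arms share that treatment. The training cohort held 7 CM mice (55 libraries) and 7 Ctrl mice (77 libraries), sampled monthly from T0, before induction, up to T10. The validation cohort held 13 CM mice (68 libraries) and 8 Ctrl mice (48 libraries), sampled at T0 to T6, at a leukemia time point (L, over 20% cKit+ blasts) and, in 5 mice, at weekly time points between week 10 and week 28. All values are log2 CPM (counts scaled to a common library total), and a log2 fold change is a difference of such values.

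C/EBP factors and PU.1 are the master regulators of the myeloid lineage: C/EBPα acts at the entry to the granulocyte-monocyte path, C/EBPε in late granulocyte maturation, and C/EBPβ and C/EBPδ in emergency and inflammatory myelopoiesis. PU.1 works in dose-dependent partnership with Irf8 and Irf4, which bind DNA poorly alone and are recruited to composite sites by PU.1. Irf8 favours monocytes and dendritic cells over neutrophils and is also strongly expressed in B cells, as is Irf4, which is best known for its role in activated B cells and plasma cells. Gfi1 is a repressor needed for neutrophils, and Klf4 an activator of monocyte differentiation. The CM fusion protein binds RUNX1, a partner of these factors at many myeloid genes.

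Start-site regions are shown first for Irf8 and Irf4, the members with an entry that fell furthest at leukemia, and for Cebpa, the C/EBP factor of the entry to the myeloid path, each the 250 bases before the RefSeq start site on the GRCm38.p6 build and read 5′ to 3′ on the gene's strand. Capitals mark the matches to the motifs searched. Irf8 lies at chr8:120736358-120756694 and its window at chr8:120736108-120736357. Irf4 lies at chr13:30749233-30766981, window chr13:30748983-30749232, and Cebpa at chr7:35119293-35121928, window chr7:35119043-35119292, all on the plus strand.
Irf8: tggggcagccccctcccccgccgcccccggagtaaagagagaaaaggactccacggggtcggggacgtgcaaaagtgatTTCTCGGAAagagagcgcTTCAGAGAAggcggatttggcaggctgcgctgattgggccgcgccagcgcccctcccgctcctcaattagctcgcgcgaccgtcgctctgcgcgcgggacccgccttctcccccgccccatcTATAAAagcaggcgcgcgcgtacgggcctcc
Irf4: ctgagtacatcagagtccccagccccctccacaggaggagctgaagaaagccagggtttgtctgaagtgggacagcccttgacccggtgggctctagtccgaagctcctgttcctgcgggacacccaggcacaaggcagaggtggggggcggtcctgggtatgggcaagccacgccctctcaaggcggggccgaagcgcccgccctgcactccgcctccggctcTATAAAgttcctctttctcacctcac
Cebpa: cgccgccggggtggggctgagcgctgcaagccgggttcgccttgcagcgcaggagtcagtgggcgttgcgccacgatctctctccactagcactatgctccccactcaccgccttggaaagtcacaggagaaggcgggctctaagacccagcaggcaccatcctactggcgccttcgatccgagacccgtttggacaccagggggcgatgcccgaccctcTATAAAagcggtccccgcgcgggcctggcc
All 3 windows held the letters TATAAA, at -31 to -26 in Irf8, -26 to -21 in Irf4 and -30 to -25 in Cebpa. Those letters were present in 12.4% of the 32851 promoter windows of the table, either strand counted. Irf8 also held TTCNNNGAA, the letters of an interferon-gamma activated sequence, at -171 to -163 and at -153 to -145, against 7.02% of windows with at least one match. No match to TGTGGT (the RUNX core, 14.0% of windows), GAGGAAG (PU.1, 10.6%) or TTGCNNAA (C/EBP, 9.56%) was found in these 3 windows. Of the other members with an entry, Gfi1 held TTGCTGAA at -143 to -136.

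Training libraries held between 16 and 36.3 M reads each, and those of the validation cohort between 8.68 and 34.4 M. The members were well covered except Cebpe, with a median of 17 reads and a range of 0 to 194, and Gfi1, with medians of 76 and 97 reads. Reads of the human MYH11 part of the fusion were present in 44 of 48 training CM libraries after T0 and in 13 of 70 Ctrl libraries. In the validation cohort 55 of 58 CM libraries after T0 and 23 of 42 Ctrl libraries had such reads. They were not limited to libraries after induction: at T0 they were present in 5 of 7 training CM, 2 of 7 training Ctrl, 10 of 10 validation CM and 4 of 6 validation Ctrl libraries, with up to 321 reads in a library. One CM mouse, 2700, had them in 3 of 6 libraries after T0, and its Kit, the gene of the blast marker, stayed between 1.54 and 2.56. The T0 library labelled mouse 2731, a female, had 643 reads of the Y-linked gene Ddx3y, against 3 in the T1 library of that mouse. That T0 library may come from another mouse, so its pairing with the leukemia library of mouse 2731 is uncertain. Leaving out either mouse is given where a count rests on it. In bulk blood, fewer cells of a type and less RNA per cell cannot be told apart.

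In the leukemia libraries of the validation cohort, 7 of the 8 members fell from the T0 library labelled as the same mouse. Irf8 and Irf4 lay far below every starting value, while Spi1 had the smallest mean change. Irf8, the monocyte and dendritic factor, went from 8.47, 7.97, 8.67, 8.55, 8.66 and 8.47 at T0 to 4.61, 5.67, 3.71, 2.89, 4.69 and 4.8 at leukemia in mice 2684, 2690, 2708, 2718, 2719 and 2731. Every leukemia value lay below every T0 value, and the log2 fold change was -4.07 ± 0.37 (SE, n = 6 mice; adjusted p = 4.44e-05, limma with a block for mouse). Irf4 went from 6.74, 6.26, 6.81, 6.86, 7.04 and 6.5 to 4.87, 4.36, 3.88, 2.71, 4.67 and 3.67 in the same order of mice, again without overlap. Its log2 fold change was -2.67 ± 0.29 (SE; adjusted p = 9.41e-05, limma). Of all genes, 64.5% were called in this comparison, 33% falling and 31.4% rising, so the members' count stands against a high background.

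Spi1 was the member of the 8 that was not called. Its level was 6.56, 6.86, 7.14, 6.74, 6.55 and 6.40 at T0 and 6.19, 7.09, 6.09, 5.67, 6.69 and 5.78 at leukemia, in the same order. Values went down in 4 mice and up in 2 mice, with a log2 fold change of -0.46 ± 0.20 (SE; adjusted p = 0.0692, limma), which missed the threshold. It passed without mouse 2690 (adjusted p = 0.0286) or mouse 2719 (0.0444), and with median-ratio scaling (-0.48, adjusted p = 0.0380).

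The C/EBP genes fell, with mice spread widely at leukemia. Cebpd, induced in acute-phase and inflammatory responses, went from 5.44 to 6.34 at T0 (median 5.77) to between 1.16 and 4.96 (median 2.98), without overlap, a log2 fold change of -2.89 ± 0.45 (SE; adjusted p = 0.000675). Cebpb, the factor of emergency granulopoiesis, went from a median of 6.36 (5.71 to 7.05) to 3.94 (2.43 to 5.83), a log2 fold change of -2.25 ± 0.49 (SE; adjusted p = 0.0042). Cebpa, the founder factor of the granulocyte-monocyte path, went from a median of 5.55 (4.92 to 5.95) to 3.60 (2.36 to 5.19), a log2 fold change of -1.65 ± 0.43 (SE; adjusted p = 0.00927). Mice 2690 and 2719 had the highest Cebpa at leukemia, 4.86 and 5.19, close to their own T0 values of 4.92 and 5.29. Mouse 2718 had the lowest leukemia value of Cebpa, Cebpb, Cebpd, Irf8, Irf4, Klf4 and Spi1 alike, and the highest of Gfi1.

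Klf4, which promotes monocyte fate, went from a median of 5.19 (4.36 to 5.75) to 3.64 (2.17 to 4.95), a log2 fold change of -1.37 ± 0.44 (SE; adjusted p = 0.0246, limma). Gfi1, the neutrophil repressor, went from a median of 3.13 (2.43 to 3.25) to 1.49 (0.28 to 3.17), a log2 fold change of -1.50 ± 0.47 (SE; adjusted p = 0.0212). Groups overlapped for both, and with 1 mouse left out at a time Gfi1 was called in 3 of 6 fits and Klf4 in 2 of 6. Without mouse 2731, 6 of 8 members were called and Klf4 was not, at a log2 fold change of -1.30. The median change of the 8 members was -1.95, beside -0.04 over all genes. T0 and L libraries were each sequenced in a batch of their own, so batch and stage cannot be told apart here. Both used the unstranded kit.

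**Figure D1:**
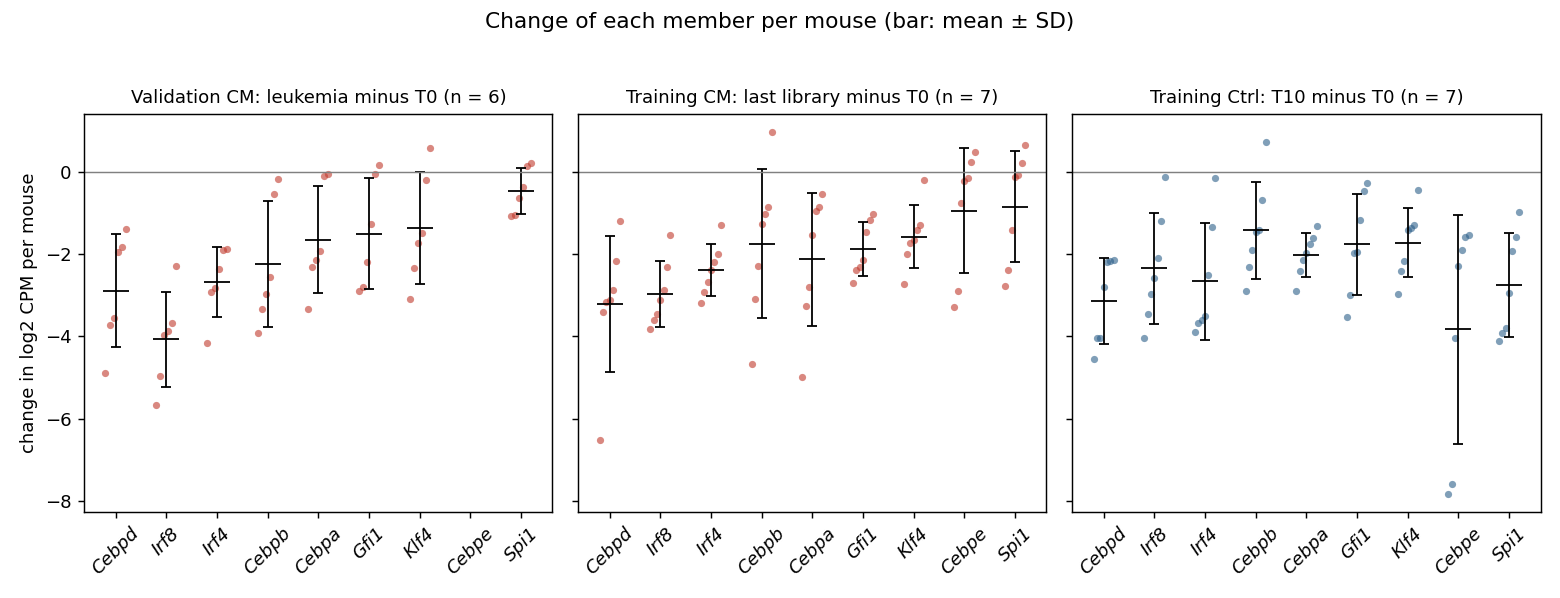
Change of each member in log2 CPM from the T0 library of the same mouse, 1 point a mouse, with the mean marked: validation CM mice at leukemia, training CM mice at their last library, and training Ctrl mice at T10. Irf8 changed by -4.07 on average at leukemia and Spi1 by -0.46, while in Ctrl mice at T10 all 9 members lay lower on average.

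Because the length of a gene does not change between libraries, the difference of Spi1 and Irf8 on the log2 CPM scale can be followed across samples, although its zero has no meaning of its own. It was -2.11 to -1.10 at T0 in the 6 mice and 0.98 to 2.78 at leukemia (1.58, 1.42, 2.37, 2.78, 2.0 and 0.98 in the order of mice above). All 48 validation Ctrl libraries lay between -2.49 and -0.61, below each of the leukemia values. At the final draw of the training CM mice it was 2.57 (mouse 3338), 2.54 (3341), 2.54 (3334), 2.25 (3336), 0.84 (3370), -0.23 (3357) and -0.77 (3368). The 77 training Ctrl libraries had a median of -1.10 and ranged from -1.96 to 1.63, so 4 of the 7 CM mice lay above every Ctrl library and 3 did not. These differences are a description and have no test. Irf8 had the largest and Spi1 the smallest mean change of the members at leukemia, -4.07 and -0.46, so the shift there restates those changes. Differences of other pairs of members were also computed and are not reported here.

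**Figure D2:**
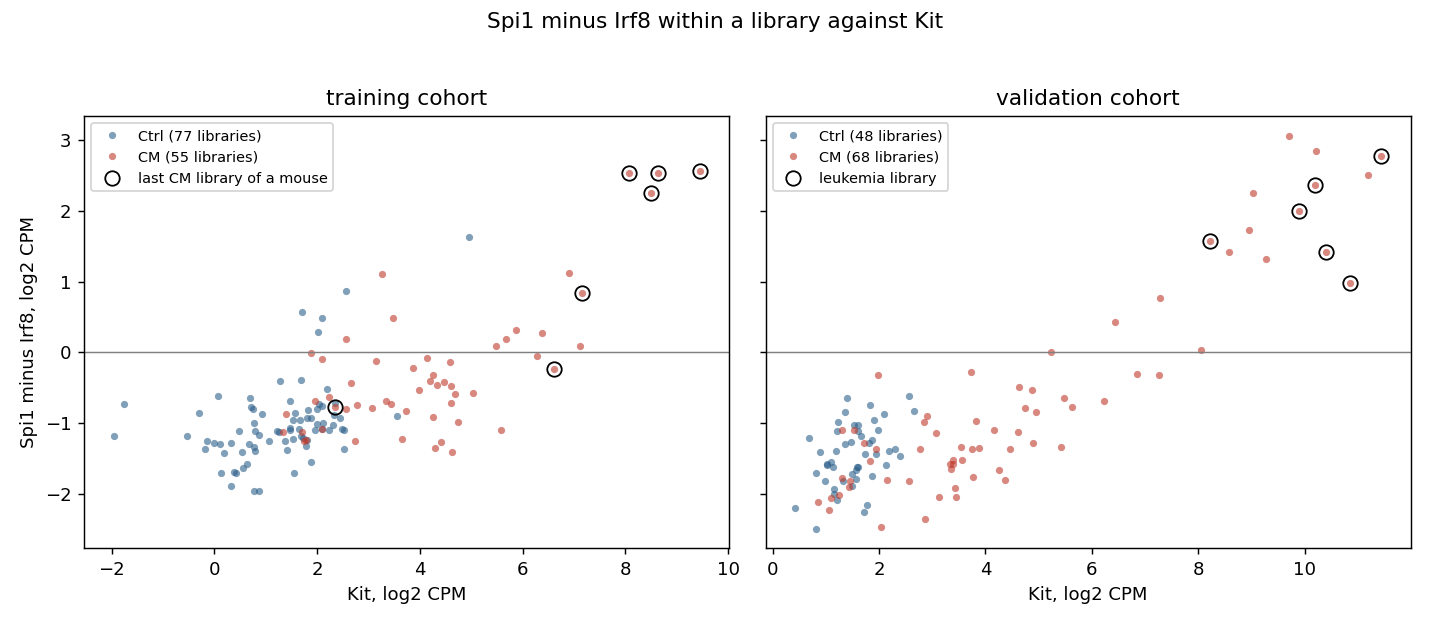
Difference of Spi1 and Irf8 in log2 CPM (vertical axis) against Kit in log2 CPM (horizontal axis), 1 point a library, by cohort and arm. Leukemia libraries have Kit between 8.22 and 11.44 and differences of 0.98 to 2.78, and validation Ctrl libraries lie at -0.61 or below.

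The weekly libraries give successive draws within 3 CM mice of the validation cohort, and have no test. These mice have no T0 library, and Irf8 and Kit changed over the same draws, so which changed first is not shown. In mouse 3200 Irf8 was 7.46, 5.95 and 5.31 at weeks 10, 14 and 18 while Kit was 5.43, 6.44 and 9.27. In mouse 3130 Irf8 was 6.63, 5.01 and 3.80 at weeks 20, 24 and 25, with Kit at 5.62, 8.95 and 11.19. Mouse 3131 had Irf8 at 6.21, 6.08 and 3.51 at weeks 20, 24 and 28, with Kit at 3.35, 8.05 and 9.70. Irf8 was lower at each later draw in all 3 mice, whereas Irf8 in the 6 weekly Ctrl libraries (2 mice) stayed between 8.07 and 8.48.
Irf4 was also lower at the last draw than at the first, 6.80, 5.47 and 4.38 in mouse 3200, 6.02, 5.15 and 3.45 in mouse 3130, and 5.61, 5.88 and 3.37 in mouse 3131, where it was not lower at the middle draw. Spi1 went the other way from first to last draw, 6.12, 6.37 and 6.63 in mouse 3200, 5.85, 6.74 and 6.32 in mouse 3130, and 4.57, 6.11 and 6.58 in mouse 3131. At the first weekly draw, Irf8 of all 3 CM mice was below all weekly Ctrl values. Among the monthly Ctrl libraries, that of mouse 2702 at T6 had a lower Irf8, 6.36, than the first draws of mice 3200 and 3130.

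Across the 68 validation CM libraries, which share mice and runs, the Spearman correlation with Kit was -0.91 for Irf8, -0.73 for Irf4, -0.66 for Cebpd and -0.31 for Spi1. In the 55 training CM libraries it was -0.40 for Irf8 and 0.12 for Spi1. The 77 training Ctrl libraries had 0.68 for Irf8 and 0.79 for Spi1, and the 48 validation Ctrl libraries -0.26 and 0.19. In the 77 training Ctrl libraries every member correlated positively with Kit, from 0.59 (Gfi1) to 0.79 (Spi1). Irf8 and Spi1 also correlated there with the share of reads from adult globin genes, at -0.86 and -0.88. These are descriptions over repeated draws of the same mice.

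**Figure D3:**
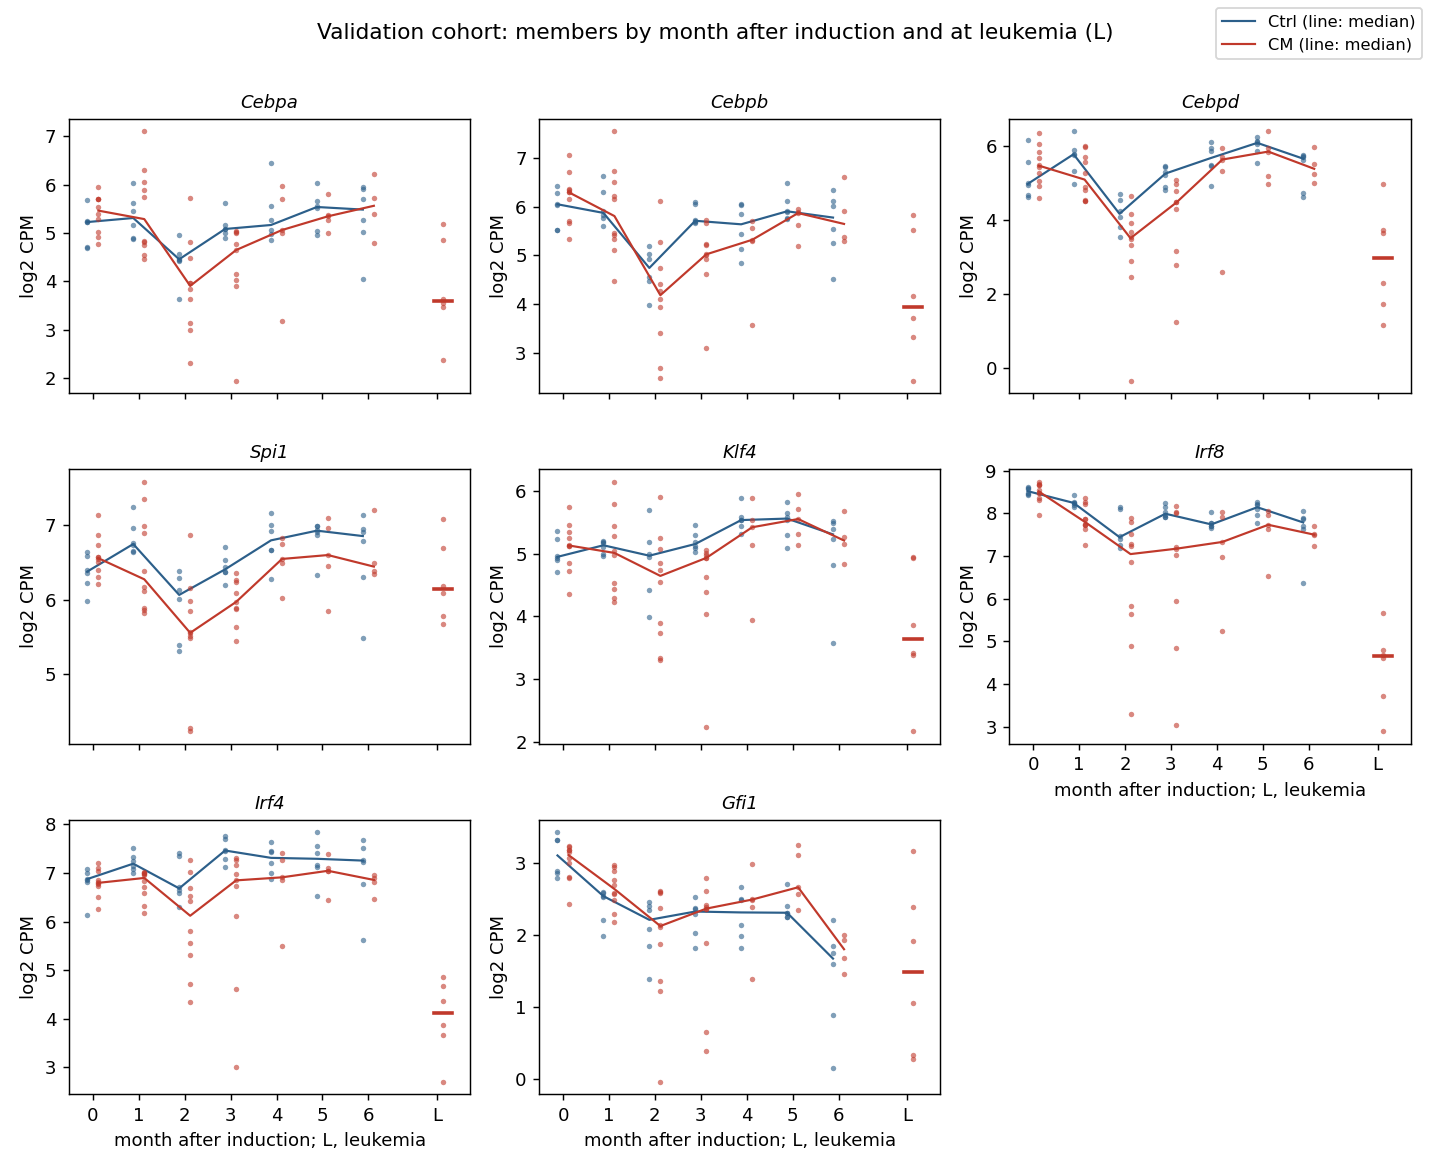
Level of each member in log2 CPM (vertical axis) by time point (horizontal axis) in the validation cohort, 1 point a library, CM and Ctrl in separate colours. Irf8 in CM mice spreads from 3.30 to 7.89 at T2 and lies between 2.89 and 5.67 at L, below its Ctrl range of 6.36 to 8.61.

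Each training CM mouse was also followed to its final draw, between month 4 and month 10, and compared with its own T0: 7 of the 9 members fell, and Cebpe and Spi1 missed the threshold. Irf8 was 7.71 to 8.33 at T0 and 4.88 (median; 3.88 to 6.49) at the end, with no overlap, a log2 fold change of -2.96 ± 0.30 (SE, n = 7 mice; adjusted p = 5.36e-05, limma with a block for mouse). Irf4 was 5.90 to 7.39 at T0 and 3.23 to 5.80 (median 4.79) at the end, a log2 fold change of -2.38 ± 0.27 (SE; adjusted p = 9.71e-05). Cebpd had the largest mean change, -3.21 ± 0.51 (SE; adjusted p = 0.000518), from a median of 5.15 to 1.88. These calls stand against 46% of all genes called, 35.9% falling and 10.1% rising. The median change was -1.88 for the members and -0.57 for all genes.

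Cebpa went from a median of 5.33 (4.69 to 6.94) to 3.69 (1.96 to 5.11), a log2 fold change of -2.13 ± 0.50 (SE; adjusted p = 0.00459), and every mouse was lower. Cebpb fell by 1.75 ± 0.54 (SE; adjusted p = 0.0195) but rose in mouse 3341, from 5.25 to 6.23, and was not called without mouse 3357 (adjusted p = 0.060). Its call was also lost with median-ratio scaling, at -1.28 (adjusted p = 0.0923, limma), and with TMM scaling, at -1.20 (adjusted p = 0.107). Gfi1 fell by 1.88 ± 0.35 (SE; adjusted p = 0.00125) and Klf4 by 1.57 ± 0.30 (SE; adjusted p = 0.00144), both without overlap between T0 and last libraries.
Cebpe, the late granulocyte factor, had a median of -0.22 at T0 and -0.76 at the end, a difference of -0.94 ± 0.56 (SE; adjusted p = 0.19). Spi1 was 8.82, 7.25, 7.06, 6.74, 7.11, 7.29 and 7.41 at T0 in mice 3334, 3336, 3338, 3341, 3357, 3368 and 3370, and 6.42, 7.13, 7.27, 7.40, 5.69, 4.53 and 7.34 at the end. It was higher in 2 mice and lower in 5, with the largest decreases in mice 3334, 3368 and 3357, and a mean difference of -0.84 ± 0.42 (SE; adjusted p = 0.121).

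Not every last training library looked leukemic by Kit, which ranged from 2.34 to 9.45 (median 8.07), against 1.34 to 3.26 at T0. The lowest value was that of mouse 3368 at month 10, in which 21.7% of reads came from adult globin genes. Mouse 3334 had the highest neutrophil marker sum of the T0 libraries, 13776 CPM. With mouse 3334 or mouse 3368 left out, 7 members were called.

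**Figure D4:**
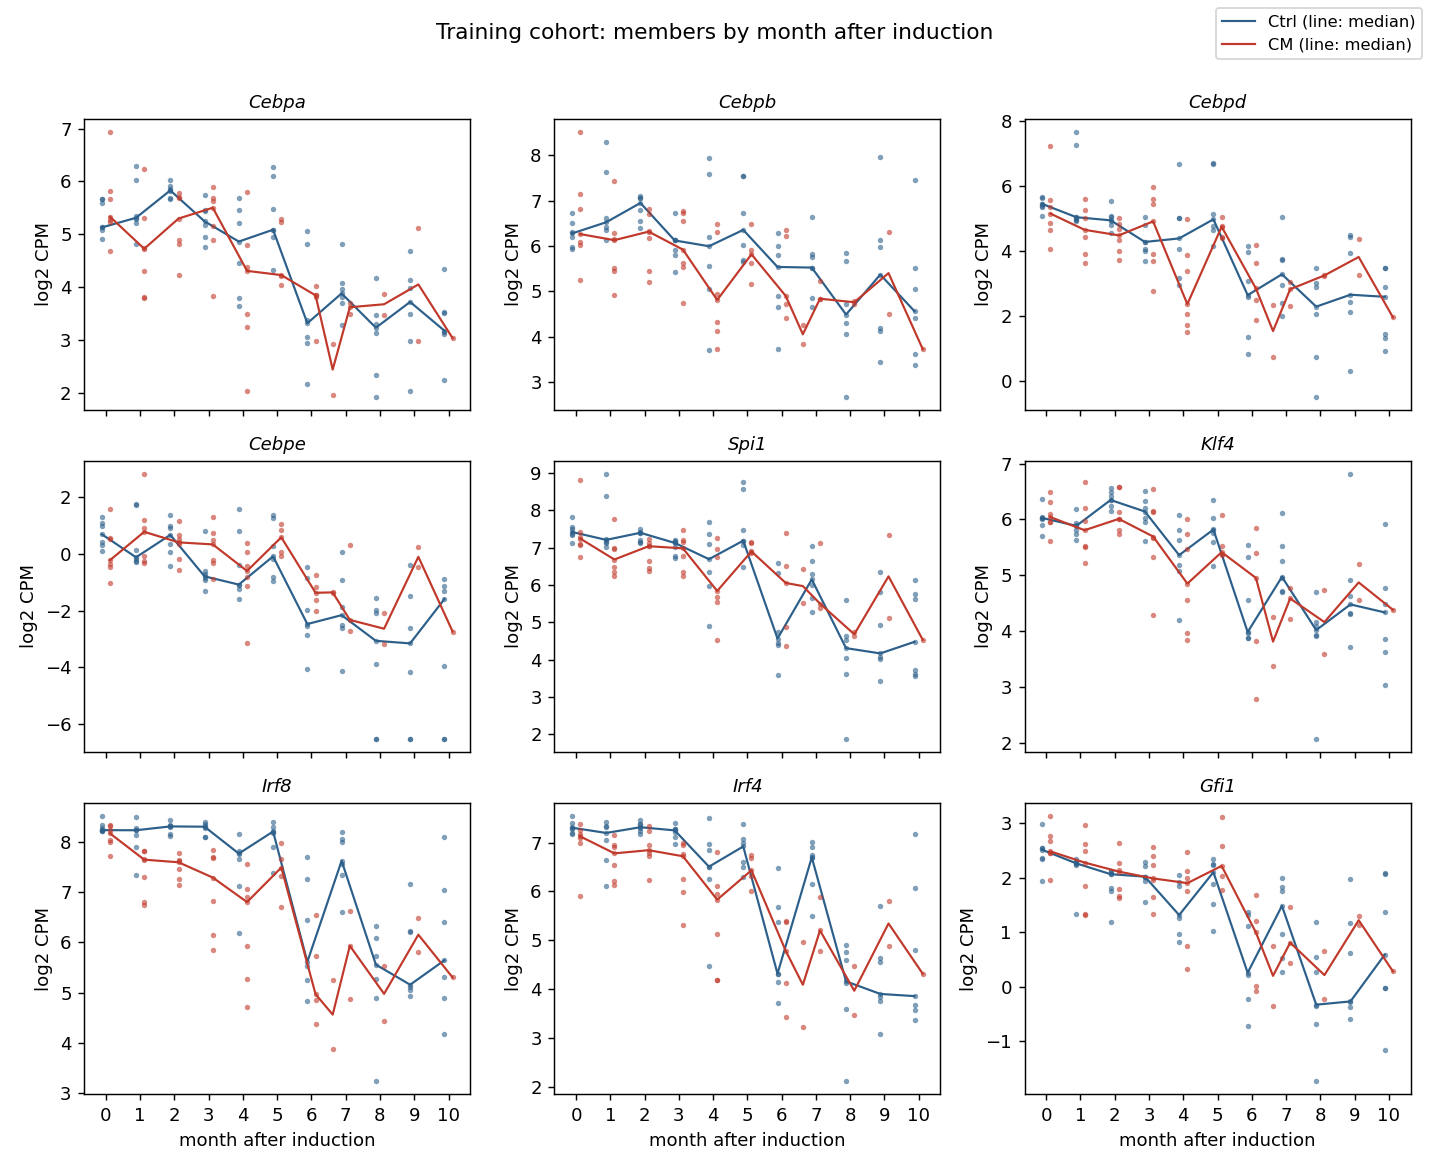
Level of each member in log2 CPM (vertical axis) by month (horizontal axis) in the training cohort, 1 point a library, CM and Ctrl in separate colours. Irf8 in CM lies below Ctrl without overlap at month 2 (7.14 to 7.77 against 8.12 to 8.43), and from month 6 the Ctrl libraries themselves spread downward.

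Before the last libraries, Irf8 was the only member called between the arms of the training cohort in the month-by-month fits, at month 2 alone. That count, 1 of 9, lies near the share of all genes called at that month. At month 2 of the training cohort Irf8 was 7.27, 7.62, 7.14, 7.64, 7.46, 7.59 and 7.77 in the CM mice and 8.32, 8.30, 8.29, 8.16, 8.43, 8.12 and 8.31 in the Ctrl mice. No CM value reached the lowest Ctrl value, and the difference was -0.76 ± 0.10 (SE, n = 7 and 7 mice; adjusted p = 0.000755, limma with sex as a covariate). It was the only one of 9 members called, beside 11.7% of all genes (6.25% lower, 1157 genes, and 5.46% higher, 1010 genes; with median-ratio scaling 13.1% of genes, 1001 lower and 1430 higher).
Irf4 differed by -0.41 ± 0.14 (SE; adjusted p = 0.077) and Spi1 by -0.46 (adjusted p = 0.054), both short of the threshold, and 8 of 9 members had a difference below 0. Cebpb differed by -0.63 ± 0.24, Cebpa by -0.55 ± 0.21 and Cebpd by -0.49 ± 0.20 (SE), none of them called, and Gfi1 was the member above 0, at 0.11 ± 0.20. Irf4 was called with median-ratio scaling (adjusted p = 0.047), and 3 members were called without the sex covariate. In 1 fit over all months with library group and mouse as terms, Irf8 differed by -0.56 and no member was called.

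The Irf8 difference had the same sign in the neighbouring months but did not pass there. It was -0.74 ± 0.22 (SE; adjusted p = 0.066) at month 1, and -1.03 ± 0.25 (SE; adjusted p = 0.072) at month 3, where CM mice ranged from 5.86 to 7.83 and Ctrl mice from 8.08 to 8.39 without overlap. At months 4, 5 and 6 it was -1.0 ± 0.43, -0.63 ± 0.22 and -0.81 ± 0.54 (SE). No member was called by limma at months 0, 1, 3, 4, 5 and 6, where 0.0054%, 5.02%, 0.632%, 0.0054%, 0.0% and 0.0162% of all genes were called and 1715, 4096, 2793, 1030, 1583 and 1661 genes had an unadjusted p under 0.05. Voom on the recovered reads called 0 members at those months too, while 1 was called at month 1 with median-ratio scaling.

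In the validation cohort Irf8 and Irf4 were the members called between the arms at month 1. That count, 2 of 8, lies near the share of all genes called there. Irf8 ranged from 7.26 to 8.35 (median 7.80) in 10 CM mice and from 8.16 to 8.43 (median 8.24) in 6 Ctrl mice, a difference of -0.39 ± 0.14 (SE; adjusted p = 0.0399, limma). Irf4 ranged from 6.17 to 7.02 (median 6.90) in CM and from 6.99 to 7.51 (median 7.19) in Ctrl, a difference of -0.46 ± 0.12 (SE; adjusted p = 0.0155). Both overlapped slightly, and 2 of 8 members called compares with 28.5% of all genes (20.6% lower, 2802 genes, and 7.95% higher, 1082 genes; with median-ratio scaling 19% of genes, 1203 lower and 1389 higher). With median-ratio scaling the Irf8 difference was -0.30 (adjusted p = 0.108) and was not called. With 1 mouse left out at a time Irf4 was called in 16 of 16 fits, but Irf8 in 5 of 16 (without CM mouse 2685, 2700, 2709 or 2731 or Ctrl mouse 2705), with an adjusted p of up to 0.102.
At month 2 Irf8 of CM mice spread from 3.30 to 7.89 and differed by -1.17 ± 0.59 (SE; adjusted p = 0.50), and at month 3 by -1.42 ± 0.69 (SE; adjusted p = 0.30). No member was called by limma at months 0 and 2 to 6, where 0.0%, 0.147%, 0.0%, 0.0%, 0.0% and 0.0% of genes were called and 208, 1374, 2224, 369, 1169 and 469 had an unadjusted p under 0.05. Voom also called 0 members at those months.

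Markers of other blood cells moved with these differences. At month 2 of the training cohort 7 of 10 B cell genes were lower in CM mice, led by Cd22 (-0.89 ± 0.18, SE) and Pax5 (-0.89 ± 0.17), and the summed B cell level was 2088 to 4615 CPM in CM against 5220 to 6079 CPM in Ctrl. All 10 T cell genes were higher, including Cd4 (1.49 ± 0.21). At month 1 of the validation cohort 7 of 10 B cell genes and 7 of 7 NK cell genes were lower in CM, and the B cell sum had medians of 3321 CPM in CM and 4595 CPM in Ctrl. Irf8 and Irf4 are both B cell genes. The part of these cell types in the differences of Irf8 and Irf4 was not tested.
At leukemia the whole B cell list fell (10 of 10), as did 8 of 8 dendritic cell genes (Siglech by 5.48 ± 0.74, SE), 8 of 9 neutrophil genes (Csf3r by 3.53 ± 0.47) and 7 of 12 monocyte genes (Cx3cr1 by 2.64 ± 0.36). The B cell sum was 75.6 to 376 CPM at leukemia and 3027 to 6098 CPM over the 10 T0 libraries, and no gene of that list was absent from the reads of either group. Over the same pair of stages 7 of 10 progenitor genes rose (Kit by 8.84 ± 0.38) and 6 of 7 mast cell and basophil genes rose (Il1rl1 by 9.70 ± 0.16). Their part in the falls of the members was not tested.

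The partners of the members did not move in one direction at leukemia. Of 24 partner factors, 9 rose and 9 fell, where 31.4% of all genes rose and 33% fell, so the partners' count lies near that background. Gata2, a factor of mast cell and progenitor programs, rose by 5.46 ± 0.17 (SE). Gfi1b, the erythroid and megakaryocytic relative of Gfi1, rose by 4.40 ± 0.38 while Gfi1 fell. Cebpg, Ddit3, Cbfb, Runx1, Etv6, Myb and Zeb2 were the others that rose. Egr1, Fos, Junb, Nr4a1, Maf, Rara, Ikzf1, Trib1 and Trib2 were those that fell.
Of 7 growth factor receptors known as PU.1 and C/EBP targets, 5 fell and 1 rose. Csf3r, the G-CSF receptor, fell as given above, with Csf1r, Csf2ra, Flt3 and Il6ra, while Csf2rb, the shared chain of the IL-3 and GM-CSF receptors, rose by 3.88 ± 0.21 (SE). Of 4 primary granule genes 3 rose, led by myeloperoxidase Mpo (5.73 ± 0.88) and cathepsin G Ctsg (4.44 ± 0.72). Secondary granule genes were divided, with Chil3 (2.67 ± 0.47) and Ngp up, Mmp9 (-2.66 ± 0.51) down and 5 of 8 not called.
In the last training libraries, 3 of 24 partner factors rose (Gfi1b by 5.83 ± 0.42, Gata2 by 5.47 ± 0.40, and Myb) and 8 fell. Of all genes 10.1% rose and 35.9% fell, so the partners' count lies near that background here too. Of 7 receptors 5 fell (Csf3r by 3.71 ± 0.49, Il6ra by 2.39 ± 0.33) and none rose, unlike at leukemia. Of 7 primary granule genes 2 rose (Mpo by 4.34 ± 1.01, Ms4a3 by 4.31 ± 0.77). There, 10 of 10 B cell genes fell and 6 of 8 mast cell and basophil genes rose.

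Ctrl mice changed too, late in the training cohort. From T0 to T10 all 9 members fell in the 7 Ctrl mice, while 83.1% of all genes were called, 72.7% falling and 10.5% rising, and the median gene changed by -1.81. Spi1 went from a median of 7.42 (7.13 to 7.82) to 4.48 (3.57 to 6.15), a log2 fold change of -2.75 ± 0.41 (SE, n = 7 mice; adjusted p = 0.00124, limma with a block for mouse). Irf8 went from a median of 8.23 (8.22 to 8.51) to 5.64 (4.19 to 8.10), a log2 fold change of -2.35 ± 0.44 (SE), and Irf4 changed by -2.66 ± 0.46 (SE). Cebpd changed by -3.13 ± 0.36, Cebpa by -2.02 ± 0.23, Gfi1 by -1.76 ± 0.45, Klf4 by -1.72 ± 0.30 and Cebpb by -1.42 ± 0.39 (SE). Cebpe changed by -3.82 ± 0.92 (SE), a value that depends on the prior count, since 2 of the 7 T10 libraries had 0 reads of it. Relative to the median gene, Spi1 lay at -0.94, Irf8 at -0.54 and Cebpb at 0.40.

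These falls moved with the share of reads from adult globin genes. That share had a median of 1.02% at T0 (0.473% to 1.77%) and 31.2% at T10 (4.21% to 38.5%) in Ctrl mice. Mouse 3335, with the lowest T10 share, had Irf8 at 8.10 at T10, the highest of the 7, and a B cell sum of 5802 CPM. The other 6 mice had Irf8 between 4.19 and 7.04. Across the 77 training Ctrl libraries the Spearman correlation with the globin share was -0.88 for Spi1, -0.87 for Irf4, -0.86 for Irf8, -0.84 for Cebpa and -0.67 for Cebpb. With median-ratio scaling, under which 45.2% of genes were called (3913 lower and 4460 higher), 4 members were called and Cebpb changed by 0.29. The part of the globin share in the changes of the members was not tested.

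**Figure D5:**
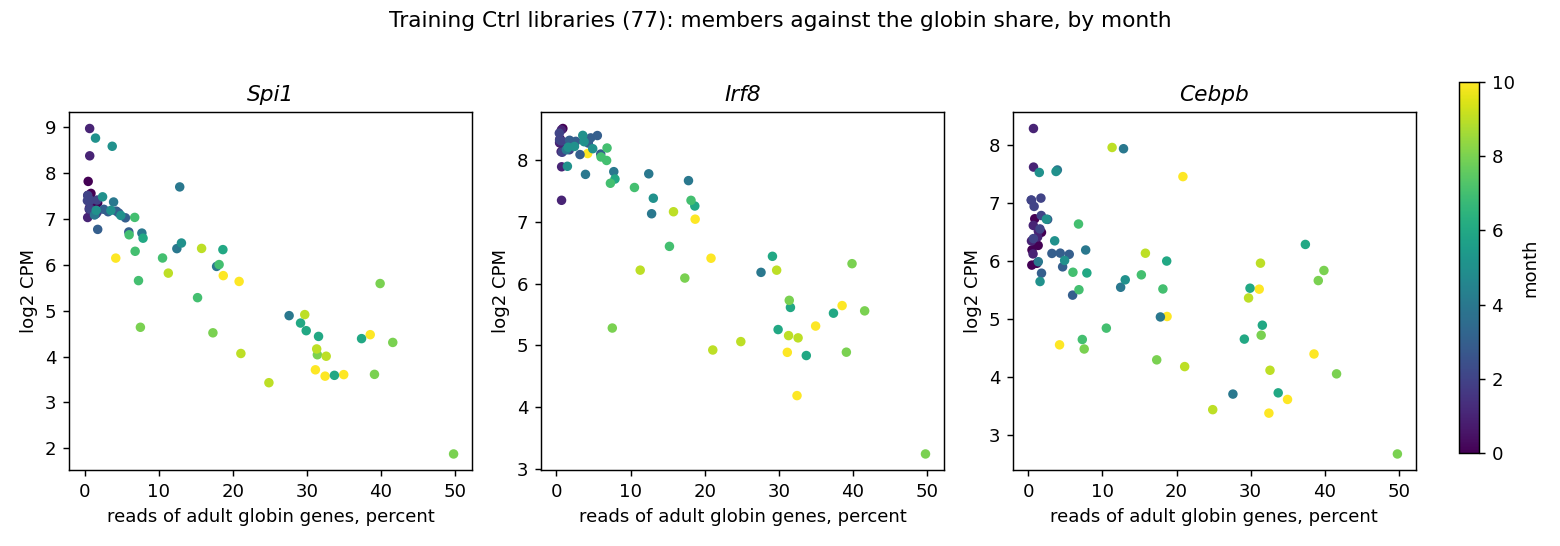
Level of members in log2 CPM (vertical axis) against the percent of reads from adult globin genes (horizontal axis) in the training Ctrl libraries, 1 point a library. Levels are lower where the globin share is higher, and the T10 library of mouse 3335 lies at 4.21% with Irf8 at 8.10.

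The change in CM mice minus the change in Ctrl mice differed with the Ctrl month used. Against T10, Spi1 alone was called: its change was 1.80 ± 0.64 higher in CM than in Ctrl (SE, n = 7 and 7 mice; adjusted p = 0.0348, limma), where 38.6% of genes were called, 33.7% higher and 4.92% lower, and the median gene was 0.95 higher. That call was lost in 8 of 14 fits with 1 mouse left out, and with median-ratio scaling the value was 0.54 (adjusted p = 0.384). Against Ctrl T5, when 34% of genes were called, 26.3% lower and 7.68% higher, 7 members were lower in CM, among them Irf8 by -2.72 ± 0.34 (SE; adjusted p = 0.000103) and Irf4 by -1.91, and the Spi1 value was -1.10 (adjusted p = 0.127). Against Ctrl T7, chosen after the data were seen, Irf8 (-2.25) and Irf4 (-1.58) were called, beside 24.1% of genes (15.7% lower and 8.42% higher). Irf8 was also called against T10 with median-ratio scaling, at -1.70 (adjusted p = 0.018), together with Gfi1 at -1.27 (adjusted p = 0.045), beside 29.9% of genes.

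In Ctrl mice of the validation cohort, the first month after poly(I:C) gave small changes from T0 in 6 mice, in both directions. Gfi1 fell from a median of 3.11 (2.79 to 3.43) to 2.54 (1.99 to 2.60), by 0.69 ± 0.11 (SE; adjusted p = 0.00389, limma with a block for mouse), without overlap. Irf8 fell from a median of 8.52 (8.43 to 8.61) to 8.24 (8.16 to 8.43), by 0.26 ± 0.06 (SE; adjusted p = 0.0126). Spi1 rose from a median of 6.38 to 6.75, by 0.47 ± 0.15 (SE; adjusted p = 0.0455), and Irf4 rose from 6.88 to 7.19, by 0.42 ± 0.12 (SE; adjusted p = 0.0375). These 4 calls of 8 members compare with 33.3% of all genes (25.7% rose, 3501 genes, and 7.58% fell, 1031 genes; with median-ratio scaling 30.3%, 2051 and 2067 genes, under which Spi1 and Irf4 were not called). With 1 mouse left out at a time, Spi1 and Irf4 were each called in 1 of 6 fits, and Gfi1 and Irf8 in 6 of 6. Time point and sequencing batch cannot be told apart in this comparison either. In training Ctrl mice no gene was called by limma from T0 to T1, where 0.0% of genes were called and 1151 had an unadjusted p under 0.05.

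The members differed in which genes they tracked over the training libraries, as a description over repeated draws of 14 mice. Every member also correlated with the globin share there, from -0.88 (Spi1) to -0.67 (Cebpb) in Ctrl libraries. In CM libraries those values ran from -0.74 (Spi1) to -0.33 (Cebpd). How far that shared shift enters the correlations below was not tested. Irf8 was most like Wdfy4, Spib and Hvcn1 (Spearman 0.97 each), with 0.93, 0.96 and 0.89 over the validation libraries. Irf4 was most like Tcf4 (0.98, validation 0.92), Socs5 (0.98, 0.80) and Snx30 (0.97, 0.90). Spi1 was most like Arpc1b (0.97, 0.81), Lrrc25 (0.96, 0.87) and Gpsm3 (0.95, 0.59). For Cebpa the closest were Plxnd1 (0.95, 0.83), Lrp1 (0.94, 0.79) and Csf1r (0.94, 0.80), the last the M-CSF receptor.
Cebpd was most like Tnfrsf1a (0.94, 0.88), Hlx and Marcks, and Cebpb most like Plaur (0.89, 0.79), Csf2ra (0.88, 0.72) and Hmox1 (0.87, 0.75). Klf4 was most like Plxnb2 (0.92, 0.80), Arhgef10l (0.90, 0.76) and Tnfrsf1b (0.89, 0.86). Cebpe was most like Retnlg (0.90), Hp and Mmp25 (0.89 each), and Gfi1 like Tbc1d22b (0.90, 0.55), Sh2d2a (0.90, 0.77) and Adcy3 (0.89, 0.69). Irf8 and Irf4 correlated with each other at 0.93 in training CM, 0.92 in training Ctrl and 0.81 in validation CM libraries, but at 0.23 in the 48 validation Ctrl libraries.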

How the data were processed

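Bulk RNA-seq of mouse blood was analysed from 2 deposited tables of log2 CPM, one of the training libraries (Kapa RiboErase) and one of the validation libraries (TruSeq, unstranded for 38 and stranded for 78). The submitters' processing notes name STAR and Subread featureCounts with the GRCm38 build, and edgeR for the training samples; no version of any tool is stated there. From the values, each deposited log2 CPM was the log2 of the CPM after adding 0.25 reads, and whole reads were recovered for 100.0% of values within 0.01 reads. No column lacked a sample. Median depth was 22.6 and 19.5 M reads in the training and validation cohorts.

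Gene symbols and windows came from RefSeq GRCm38.p6. The values being log2, the test was limma 3.58.1 (R 4.3.3) over all genes of a table, with Benjamini-Hochberg adjustment and a call at an adjusted p under 0.05. Arms were compared month by month with sex as covariate, and each mouse with its own T0 with a block for mouse, since the labels name the mouse: same-numbered libraries are draws from 1 animal. Alternatives were median-ratio and TMM scaling, a prior of 2 reads, a filter at a mean log2 CPM of 1, voom on the recovered reads, no sex term, no block, and leaving out each mouse. The script was tested on simulated data. All members measured in a cohort entered each of its comparisons and are counted there. Of each gene list, counts are given, and genes are named from the 2 called genes with the largest change (1 such result is not reported here); partner factors, receptors and secondary granule genes named beyond that were named after their values were seen. The members and lists were chosen with earlier results of these data known. Genes most like a member were the 3 with the highest Spearman correlation in the training libraries.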

Additional observations from a re-analysis of the deposited data

Results flagged for a closer look

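Each member was looked at in each group of 4 to 10 libraries, which gave 282 sets of values. In 26 of them 1 library stood apart from the rest, where chance gives about 1 in 20 for a single set. The sets share libraries, and the members correlate with each other, so the 26 cannot be set against that share. All values are log2 CPM of a single library and have no explanation attached.

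Several libraries stood apart for more than 1 member. In the training CM T0 group, mouse 3334 had the highest Spi1 (8.82) and the lowest Irf4 (5.90). In the validation CM T3 group, mouse 2719 had the lowest Cebpa (1.94), Cebpb (3.09) and Klf4 (2.24). Mouse 2684 had the lowest Cebpb (3.57) and Cebpd (2.59) at validation CM T4, and mouse 2731 the lowest Cebpd (-0.36) and Gfi1 (-0.038) at validation CM T2. Among validation Ctrl mice, mouse 2689 had the lowest Spi1 (6.34) and the highest Gfi1 (2.72) at T5, and mouse 2702 the lowest Irf8 (6.36) and Klf4 (3.58) at T6. Training Ctrl mouse 3342 had the lowest Gfi1 at T1 (1.34) and at T2 (1.19) and the highest Cebpe at T3 (0.79).

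The others were single cases. In training CM mice, 3370 had the lowest Cebpa at T6 (2.98) and the highest Klf4 at T5 (6.08), and 3334 the lowest Cebpe at T4 (-3.15). In training Ctrl mice, Irf8 was highest in 3346 at T0 (8.51), Klf4 lowest in 3349 at T8 (2.07) and highest in 3340 at T9 (6.81), and Irf4 lowest in 3350 at T4 (4.47). In the validation cohort, Irf8 was lowest in CM mouse 2718 at T5 (6.53) and highest in Ctrl mouse 2683 at T4 (8.03), and Irf4 lowest in Ctrl mouse 2705 at T0 (6.14).

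Spi1 changed differently in the arms of the training cohort, by 1.80 on the log2 scale from T0 to the last CM library against T0 to T10 in Ctrl (adjusted p = 0.0348, limma), with the limits given for that comparison. The weekly libraries, which enter no test, held a difference of Spi1 and Irf8 of up to 3.06 in CM mice, while the highest of the 6 weekly Ctrl libraries was -1.12.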

How the results depend on the processing

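The limits are the number of mice, 4 to 10 an arm, the 0 to 194 reads of Cebpe, and scaling by total reads in libraries rich in globin. Counts of members called are given first. With median-ratio scaling 13.1% of all genes were called at training month 2, 19% at validation month 1 and 30.3% in validation Ctrl T1. That share was 45.2% in training Ctrl T10 and 29.9% in the net change. With the deposited scaling the net change had 34% against Ctrl T5 and 24.1% against Ctrl T7. For the other alternatives, and with 1 mouse left out, that share is not given, so those counts have no background beside them. With median-ratio and with TMM scaling, 1 and 1 members were called at training month 1, 2 and 2 at training month 2, 1 and 1 at validation month 1, 2 and 2 in validation Ctrl T1 against T0, and 4 and 4 in training Ctrl T10 against T0. At training month 2 the filter on mean log2 CPM gave 2, no sex term 3, and 1 fit over all months with library group and replicate block 0. At training month 3 no sex term gave 1. The net training change gave 2 with median-ratio scaling, 2 without sex, 7 against Ctrl T5, 7 against Ctrl T5 with median-ratio scaling and 2 against Ctrl T7. The Ctrl T7 change, the Ctrl T5 change with median-ratio scaling and the 6 members called in CM mice whose last library was before month 8 were chosen after seeing the data.

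With 1 mouse left out at a time, 0 to 1 members were called at training month 1, 1 to 3 at month 2, 0 to 2 in the net change, 1 to 2 at validation month 1, 2 to 4 in validation Ctrl T1 against T0, 6 to 7 in the last training libraries, 5 to 8 at leukemia and 9 to 9 in training Ctrl T10. In the net change the count was 0 without CM mouse 3336, 3338, 3341 or 3370 or Ctrl mouse 3339, 3342, 3349 or 3350, and 2 without CM mouse 3368 or Ctrl mouse 3335 or 3340. Without the replicate block the paired comparisons gave 7 at the last training library, 9 in Ctrl T10, 0 in training Ctrl T1, 7 at leukemia and 3 in validation Ctrl T1, where Irf4 was no longer called. No paired analysis was possible between the arms because they hold different mice.

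Signs turned in these cases, and the cause was not tested. Cebpb in training Ctrl T10 against T0 was 0.29 with median-ratio and 0.15 with TMM scaling. In the net change Spi1 was -1.10 against Ctrl T5 and -0.78 with median-ratio scaling added, Klf4 -1.43 and -1.12, and Irf4 -1.91 and -1.59, with -1.58 against Ctrl T7. Of 1113 member values under an alternative 49, and of 2017 with 1 mouse left out 93, had the other sign while called in neither fit.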
